A study of Mus musculus with 6 samples.

Results

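The genes described here encode the secreted and membrane-bound matrix proteases of the MMP and ADAMTS families and the TIMP proteins that inhibit them, measured by RNA sequencing in mammary tumours. Members were taken by gene symbol alone, as rows named Mmp with a number and an optional a or b, Adamts with a number, or Timp with a number, which gave 46 of the 55487 gene rows, namely 23 Mmp, 19 Adamts and 4 Timp genes. The tumours came from MMTV-PyMT mice, in which the middle T antigen of polyoma virus is expressed from a mouse mammary tumour virus promoter, active mainly in mammary epithelium, so that both groups carry the transgene. The agonist group consisted of 3 libraries of tumours from mice that received DMHCA, a compound that activates the liver X receptors (LXR), by mouth in gel cups continuously from 6 weeks of age. The vehicle group consisted of 3 libraries of tumours from mice that received the vehicle in the same way. The labels give neither the age at collection nor the genetic background, and leave unsaid whether each tumour is from a different mouse, so that p-values measure the spread between these libraries, which may be technical in part. All titles of a group carry the same unexplained code, and the code of the agonist group is not that of the vehicle group, so that whatever it stands for cannot be told apart from treatment.

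Matrix metalloproteinases (MMPs) are zinc endopeptidases that are made as inactive precursors and cleave collagens, laminins, elastin and many cell surface proteins. ADAMTS proteases share a related zinc-dependent catalytic domain but carry thrombospondin repeats that bind them to the matrix, and they cleave proteoglycans, process procollagens or act on microfibrils. The 4 TIMPs bind the active site of MMPs, and TIMP3 also inhibits several ADAMTS proteases. In mammary tumours many MMPs are known to come from fibroblasts and macrophages of the stroma rather than from the cancer cells.

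Each library held between 36577451 and 42595799 expected counts, at which 3 counts correspond to between 0.0704 and 0.082 CPM (the usual depth-scaled count). Luminal epithelial markers were abundant in every library, with Krt18 at a mean of 794 TPM (a length-corrected share of the transcripts) and Cldn3 at 457 TPM. Stromal markers varied more. The summed level of 10 fibroblast markers ran from 3149 to 5006 CPM in the agonist libraries, but was 2364, 6417 and 564 CPM in vehicle replicates 1, 2 and 3. Vehicle replicates 2 and 3 thus stood apart from each other, and log2 fold changes that rest on them are given with and without them. In bulk tumour RNA fewer cells of a type and less RNA per cell cannot be told apart.

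Of the 46 genes, 22 were expressed at a mean of at least 1 TPM over the 6 libraries, 15 were low (from 0.1 up to 1 TPM) and 9 were near absent. TPM corrects for transcript length and is used here to order genes against each other. The expressed genes comprised 10 of 23 Mmp, 9 of 19 Adamts and 3 of 4 Timp genes. That is 47.8% of the members, beside 25.7% of all gene rows. All gene rows also include pseudogenes and antisense transcripts, so that the shares are not of like sets. Timp1 had the highest mean of the 46 genes, at 51.3 TPM, but it ranged from 11.3 to 88.6 TPM between libraries. Adamts10, a protease linked to fibrillin microfibrils, followed at 37.1 TPM (17.0 to 58.2). Timp2, the inhibitor that also assists the activation of pro-MMP2 at the cell surface, had 34.4 TPM (19.6 to 52.0).

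Among the proteases, 3 further genes stood above 20 TPM on average. Mmp15, which encodes a membrane-type MMP, had 33.6 TPM (19.3 to 64.8), and the gelatinase gene Mmp2 had 32.9 TPM (6.08 to 50.9). Mmp14, the membrane-type MMP that activates pro-MMP2 and cleaves fibrillar collagen, had 23.2 TPM with the narrowest range of these (19.3 to 32.7). The ranges of these genes overlapped, so that their order by mean is not an order in every library. Mmp14, Mmp2 and Timp2, whose products act together in the activation of pro-MMP2, were thus among the 6 members with the highest means.

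A middle tier lay between 1 and 13 TPM. The stromelysin Mmp3 had 12.3 TPM (1.47 to 25.2) and the macrophage metalloelastase Mmp12 had 12.04 TPM (6.26 to 18.1). Timp3, the matrix-bound inhibitor, had 8.07 TPM (6.11 to 10.2). These were followed by Mmp23 at 5.51, Mmp16 at 4.80, Mmp19 at 4.19 and Mmp11, the gene of stromelysin-3, at 3.67 TPM. The collagenase Mmp13 was the lowest expressed Mmp gene, at 1.54 TPM. In the ADAMTS family the expressed genes after Adamts10 were Adamts8 (5.40 TPM), the procollagen N-propeptidase Adamts2 (4.77), Adamts7 (4.16), the proteoglycanases Adamts1 (3.29) and Adamts15 (2.86), the aggrecanase Adamts5 (1.495), Adamts3 (1.43) and Adamts12 (1.21). Adamts2, Adamts3 and Adamts14 process procollagens, and the third of these was low, at 0.638 TPM.

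**Figure D1:**
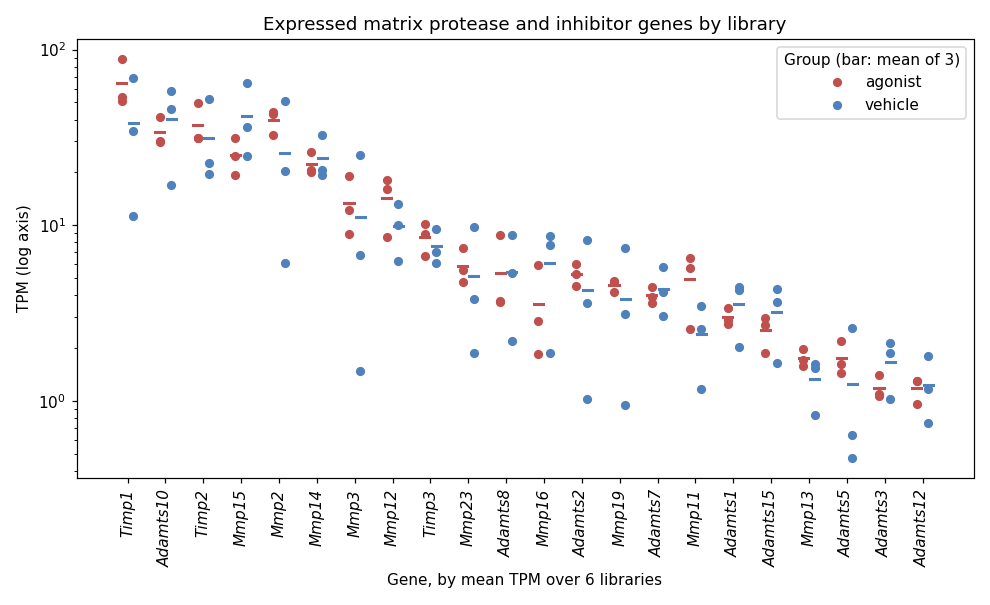
TPM on a log axis of the 22 genes with a mean of at least 1 TPM, ordered by that mean, with a point for each of 3 agonist and 3 vehicle libraries and a bar at each group's mean. The points of the groups overlap for each gene, and vehicle points spread widest for Mmp3, Mmp2, Mmp19 and Adamts2.

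Several proteases that are often measured in tumours were scarce. Mmp9, the gelatinase of neutrophils and macrophages, had 0.677 TPM (0.17 to 1.08), and the neutrophil collagenase Mmp8 gave between 3 and 12 counts per library. Of 8 neutrophil markers 7 were detected, and the list summed to between 5.56 and 38.7 CPM. Ly6g was at 0 counts in each library, whereas S100a8 had a mean of 79.2 TPM (3.73 to 33.2 CPM). Mmp7, the epithelial matrilysin, had 0.473 TPM (0.14 to 1.07), and Timp4, the fourth inhibitor, had 0.148 TPM. Mmp1a and Mmp20 had 0 counts in each of the 6 libraries and Mmp1b had 1 count in all, all within the floor of 3 counts. Mmp1a and Mmp1b are close copies, between which the counting could have split reads, but they had only 0 and 1 counts in all.

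The summed TPM of the 4 Timp genes was 129, 89.0 and 114 in the agonist libraries and 60.4, 131 and 41.0 in the vehicle libraries. The summed TPM of the 23 Mmp genes was 154, 130.3 and 133 with agonist and 148, 171 and 84.5 with vehicle. Their quotient, Timp over Mmp, was 0.839, 0.683 and 0.853 with agonist and 0.407, 0.764 and 0.486 with vehicle. The agonist and vehicle quotients overlap, since vehicle replicate 2 lies above agonist replicate 2. The quotients of vehicle replicates 1 and 3 lie below each agonist quotient, so that the overlap rests on vehicle replicate 2. The Timp sum of vehicle replicates 1 and 3 likewise lies below each agonist sum. By contrast, the Mmp sum of vehicle replicate 1 lies among the agonist sums. In that library Mmp15 gave 64.8 TPM of it, beside 19.3 to 36.4 TPM in the other libraries. By Timp sum the 6 libraries fell in the same order as by the fibroblast marker sum, whose part was not tested. The 19 Adamts genes summed to between 57.9 and 68.0 TPM with agonist and between 52.0 and 81.5 with vehicle, and Adamts10 alone gave between 17.0 and 58.2 TPM of that.

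A group of 10 Mmp genes lies side by side on chromosome 9, an old cluster of secreted MMP genes, and their levels ran from 0 to 12.3 TPM. In order of position on GRCm38 these are Mmp13 (7272514 to 7283331), Mmp12, Mmp1b, Mmp3 (7445822 to 7455975), Mmp1a, Mmp10, Mmp8, Mmp27, Mmp20 and Mmp7 (7692090 to 7699585), with Mmp1b on the minus strand and the others on the plus strand. Mmp3 and Mmp12 were the abundant members, and Mmp1b, which lies between them and overlaps Mmp12 on the opposite strand by 157 exonic bases, was within the floor. Mmp10, the close relative of Mmp3, gave between 1 and 3.01 counts per library.

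**Figure D2:**
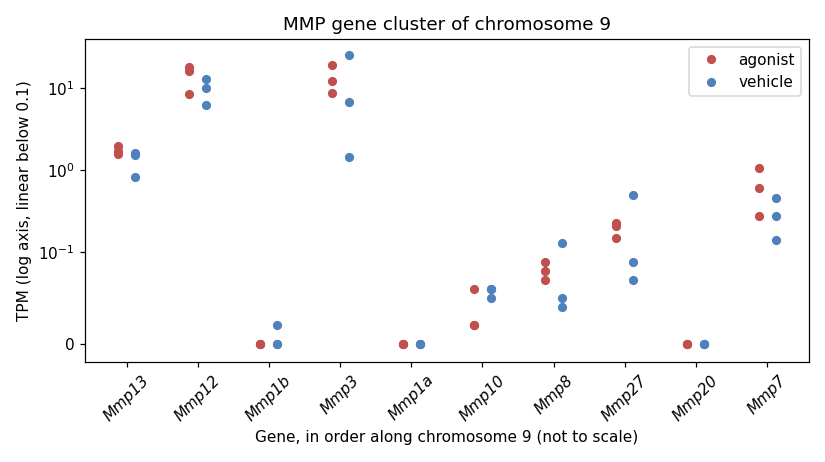
TPM of the 10 Mmp genes of chromosome 9 in their order along the chromosome, not to scale, on an axis that is logarithmic above 0.1 TPM and linear below it, with a point for each library. Mmp12 and Mmp3 reach 18.1 and 25.2 TPM, while Mmp1a and Mmp20 lie at 0.

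The promoters of this cluster are shown because they carry a feature that the choice of genes did not use, a match to the AP-1 motif, which is the recognition sequence of Fos and Jun proteins and a known element of secreted MMP promoters. RefSeq promoters (GRCm38.p6), from 250 bases before to 50 bases after a start site, were at hand for 32 of the 46 members, as 35 sequences. All 10 genes of the cluster were among them, so that each member without a promoter lay outside it. Mmp2, Mmp9, Mmp19 and Adamts5 were among those not searched. The motif TGANTCA, which reads alike on both strands, was present in 8 of the 12 promoters of the chromosome 9 Mmp genes and in 0 of the 23 promoters of the other members, beside 7.81% of all 32851 promoters. Each of the 8 genes had 1 match, between 35 and 95 bases before the start, and 6 of the 8 read TGAGTCA on the strand of the gene. The windows of 47 bases below are written 5′ to 3′ on the strand of the gene, with the motif in capitals.
Mmp13: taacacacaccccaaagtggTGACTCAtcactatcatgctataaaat
Mmp12: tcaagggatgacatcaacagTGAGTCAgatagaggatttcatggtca
Mmp1b: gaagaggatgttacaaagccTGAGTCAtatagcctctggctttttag
Mmp3: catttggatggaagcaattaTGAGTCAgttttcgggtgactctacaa
Mmp1a: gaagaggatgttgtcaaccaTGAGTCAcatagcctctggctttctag
Mmp10: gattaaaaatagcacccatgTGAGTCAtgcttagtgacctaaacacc
Mmp20: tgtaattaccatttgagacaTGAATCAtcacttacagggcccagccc
Mmp7: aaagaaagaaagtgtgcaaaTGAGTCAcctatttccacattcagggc
On GRCm38 the windows of Mmp3 (chr9:7445756-7445802) and Mmp12 (chr9:7347310-7347356) hold the same 7 letters as those of Mmp1a (chr9:7464048-7464094), Mmp1b (chr9:7388093-7388139, minus strand), Mmp10 (chr9:7502259-7502305) and Mmp7 (chr9:7692007-7692053). Mmp13 (chr9:7272459-7272505) reads TGACTCA, which is TGAGTCA on the other strand. Only Mmp20 (chr9:7628116-7628162), with TGAATCA, differs from these at the middle letter on both strands. Each window but that of Mmp1b is on the plus strand. The genes with TGAGTCA on either strand thus ranged from 0 TPM for Mmp1a to 12.3 TPM for Mmp3. Matches are a description of these letters, not of binding. The ETS core GGAA, read on both strands, was in 32 of the 35 member promoters and in 96% of all promoters, so that it does not single the members out. The strict DR4 form of the LXR element, a direct repeat of AGGTCA with a spacer of 4 bases that was searched after the values were seen, was found on either strand in 0 of the 35 and in 0.0152% of all promoters.

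The highest and lowest values of the members fell mostly in vehicle replicates 2 and 3. Of the 46 genes, 39 passed the filter on low counts and were tested, and 24 of these had their lowest CPM in vehicle replicate 3, a share of 61.5% beside 20.7% of all tested genes. Vehicle replicate 2 held the highest CPM of 19 members, 48.7% beside 16.9% of all tested genes. For 22 of the 39 members vehicle replicate 2 was the highest and vehicle replicate 3 the lowest of the vehicle libraries, 56.4% beside 19.4%. For 22 of the 39 members each agonist library lay inside the vehicle range, 56.4% beside 29.5% of all tested genes.

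Mmp3 shows the pattern at its widest among the expressed genes. It had 28.1, 11.9 and 17.5 CPM in agonist replicates 1, 2 and 3 and 8.78, 42.3 and 2.06 CPM in vehicle replicates 1, 2 and 3. The vehicle libraries thus spanned 20.5-fold and enclosed the agonist values. Mmp2 had 76.9, 60.4 and 79.8 CPM with agonist and 38.0, 122 and 12.2 CPM with vehicle. Adamts2, which trims procollagen, had 39.6, 27.5 and 34.8 CPM with agonist and 21.8, 62.9 and 6.64 CPM with vehicle. The same order of vehicle libraries held for Mmp19 (8.32, 25.0 and 2.74 CPM), Mmp23 (3.33, 10.4 and 1.59 CPM), Adamts5 (5.84, 30.5 and 4.55 CPM) and Timp1 (16.6, 43.5 and 6.04 CPM).

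The fibroblast and macrophage marker sums ranked the vehicle libraries as these genes did. The fibroblast sum was highest in vehicle replicate 2 and lowest in vehicle replicate 3, and the full order of the 6 libraries by that sum was also the order of 6 members, Mmp3, Mmp23, Adamts2, Adamts5, Adamts9 and Adamts16. The sum of 8 macrophage markers was 614, 579 and 514 CPM with agonist and 394, 924 and 176 CPM with vehicle, and its order was that of Mmp19. The order by the neutrophil sum was that of Mmp11 and Adamts17. S100a8 made up most of this sum and had the same order, whereas S100a9 and Csf3r, the other tested neutrophil markers, had different orders. The orders by the endothelial, luminal, basal and myoepithelial, adipocyte, skeletal muscle, and cartilage and bone sums were each that of 0 members. The share of all tested genes with each of these orders was not determined, so that the counts single out no member. Adipocyte markers, 6 of 6 detected, ran from 76.6 to 404 CPM with agonist and from 31.6 to 521 CPM with vehicle, also with vehicle replicate 3 lowest and vehicle replicate 2 highest. The 7 luminal markers varied less. They summed to 4028, 4104 and 3918 CPM with agonist and 4174, 4833 and 4267 CPM with vehicle. Each agonist sum was thus below each vehicle sum. Taken singly, 1 of the 7 was lower without overlap, beside 4.22% of all tested genes. Of these markers 6 of 7 had negative log2 fold changes, with a median of -0.25 and 0 past the adjusted threshold by edgeR (0 at an unadjusted p under 0.05). The part of cell makeup in the members' spread was not tested.

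In a few members vehicle replicate 2 was instead the lowest vehicle library. These were 5 members, Adamts10, Adamts3, Mmp15, Mmp16 and Mmp24, or 12.8% of the 39 beside 34.6% of all tested genes. The highest vehicle library was replicate 3 for Mmp16 and replicate 1 for the other members of this set. Adamts10 had 111, 81.8 and 82.8 CPM with agonist and 147, 59.3 and 128 CPM with vehicle. Mmp16, a membrane-type MMP, had 17.1, 5.22 and 10.2 CPM with agonist and 22.1, 6.55 and 24.8 CPM with vehicle. In both genes the vehicle libraries lay on either side of most agonist values. The lowest of the 6 libraries was vehicle replicate 1 for 6 members, Adamts1, Adamts15, Adamts8, Mmp27, Timp2 and Timp3. Among these Adamts8 was highest in vehicle replicate 3, with 6.38, 19.7 and 27.3 CPM in vehicle replicates 1, 2 and 3.

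**Figure D3:**
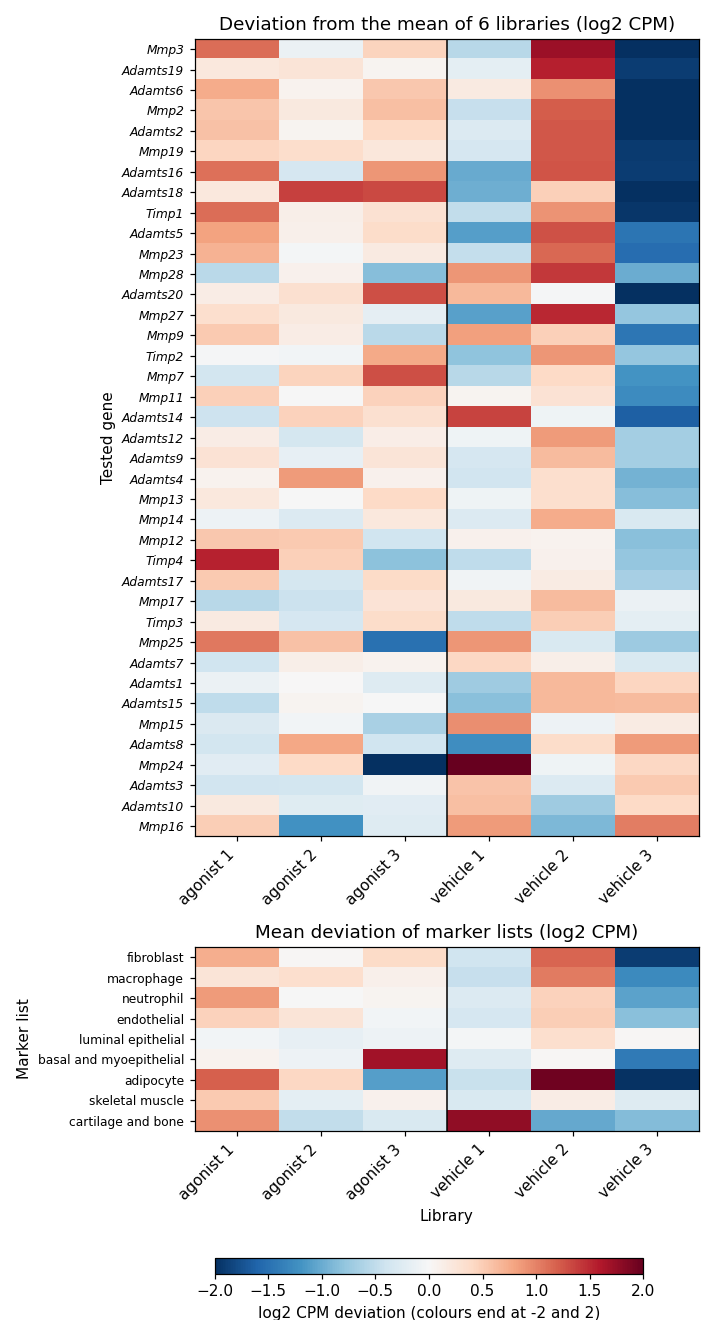
Deviation of each of 39 tested genes from its mean over the 6 libraries in log2 CPM (upper panel) and mean deviation of 9 marker lists (lower panel), with libraries in columns and a line between agonist and vehicle. Genes are sorted by the difference between vehicle replicates 2 and 3, and the upper rows are red in vehicle 2 and blue in vehicle 3, as are the fibroblast, macrophage and adipocyte rows.

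The comparison of agonist with vehicle asks whether LXR activation altered expression of these proteases and inhibitors in the tumours. By edgeR's quasi-likelihood test 0 of the 39 tested members passed an adjusted p of 0.05, beside 0% of the 17396 genes tested, and DESeq2 and limma on TPM also called 0 members. The members' adjusted p-values by edgeR lay between 0.99 and 0.995. At an unadjusted p under 0.05 there was 1 member, Mmp15, 2.56% of the 39 beside 3.09% of all tested genes. It was lower with agonist, beside 2.37% of all tested genes, and 0 members were higher, beside 0.719%. The groups failed to overlap for 0 of the 39 members, beside 7.24% of all tested genes (3.02% higher and 4.22% lower with agonist). Log2 fold changes were positive for 22 members (56.4%, beside 49.3% of all tested genes) and negative for 17. Their median was 0.15, beside -0.0049 over all tested genes. The median standard error (SE) of a member's log2 fold change was 0.62, beside 0.27 over all tested genes, so that a member's difference had to be larger than that of a typical gene to be detectable.

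The signs of the members turned on the vehicle libraries. Without vehicle replicate 2 the median log2 fold change was 0.64, with 27 of 39 positive, and 13 members had an unadjusted p under 0.05 (9 higher and 4 lower with agonist), beside 13.6% of all tested genes. Without vehicle replicate 3 the median was -0.17, with 14 of 39 positive, and 2 members had an unadjusted p under 0.05, beside 3.23% of all tested genes. In neither fit did a member pass the adjusted threshold by edgeR, where the smallest adjusted p was 0.272 and 0.991, respectively. Without vehicle replicate 1 the median was -0.03 and without agonist replicate 1 it was 0.04.

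**Figure D4:**
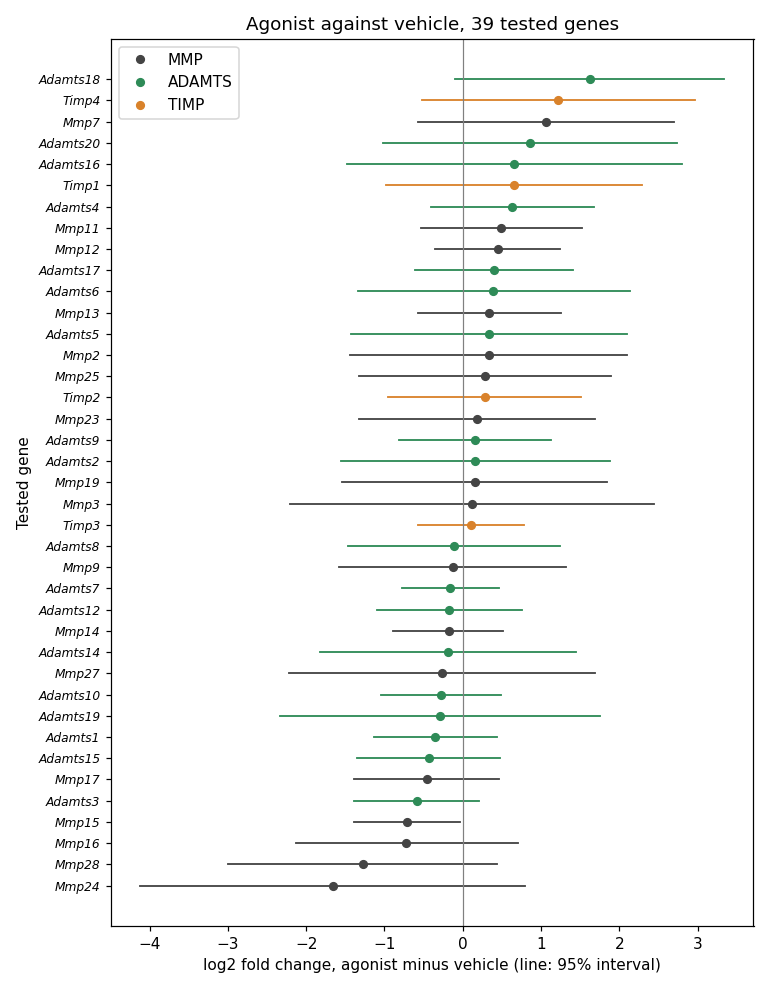
Log2 fold change, agonist minus vehicle, of the 39 tested genes with its 95% interval from the edgeR fit, coloured by family. The interval includes 0 for each gene but Mmp15, which runs from -1.39 to -0.03.

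Among the membrane-type MMPs, which act at the cell surface, 5 of 6 had negative log2 fold changes, beside 8817 of all 17396 tested genes. Their median was -0.59, and 4 to 6 were negative with any 1 library left out and under the other scalings. Mmp25 (mean 0.963 TPM) was the positive gene, at 0.28 ± 0.69, and -0.22 without agonist replicate 1. Mmp17 (mean 0.44 TPM) was at -0.46 ± 0.40, and -0.25 without vehicle replicate 2. The luminal marker sum was also lower with agonist without overlap, as given above. Singly this held for 1 of the 7 markers, beside 4.22% of all tested genes. The part of luminal content in these genes was not tested. Mmp15 had 115, 135 and 88.8 CPM in the agonist libraries and 267, 130.1 and 157 CPM in the vehicle libraries. Agonist replicate 2 lay above vehicle replicate 2, so that the groups overlapped. Its log2 fold change was -0.71 ± 0.29 (SE; unadjusted p = 0.0419, edgeR adjusted p = 0.99), and -0.35 without vehicle replicate 1, the library in which the gene was highest. Mmp14 had 46.0, 41.2 and 57.2 CPM with agonist and 40.9, 82.9 and 40.3 CPM with vehicle. The vehicle values lay on both sides of the agonist values, with a log2 fold change of -0.18 ± 0.30, which was 0.24 without vehicle replicate 2. Mmp16 was at -0.72 ± 0.59 (-0.39 without agonist replicate 2 and -1.21 without agonist replicate 1). Mmp24, a membrane-type MMP best known from the nervous system, had 0.19, 0.317 and 0 CPM with agonist and 1.07, 0.213 and 0.323 CPM with vehicle. It was near absent, its exons overlap those of the more abundant BC029722 on the other strand by 637 bases, and its fitted log2 fold change was -1.66 ± 1.06, and -0.66 without vehicle replicate 1.

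The secreted gelatinases and stromelysins had mean differences inside wide vehicle spreads, and their size depended on the fit. Mean levels of Mmp2 were 72.4 ± 10.5 CPM in agonist and 57.5 ± 57.6 CPM in vehicle libraries (SD, n = 3). The log2 fold change was 0.33 ± 0.74 (SE), and it was 1.52 without vehicle replicate 2 and -0.13 without vehicle replicate 3. Mmp3 had 19.2 ± 8.22 against 17.7 ± 21.5 CPM. On the log2 scale this was 0.12 ± 0.97, and 1.81 and -0.40 without the same libraries. With the replicate number as a block the values were 0.91 for Mmp2 and 1.09 for Mmp3. On log2(TPM + 1) and log2(TPM + 0.1) they were 1.03 and 1.10 for Mmp2 and 0.80 and 0.99 for Mmp3, with no call in any of these fits. Mmp9 had 1.90, 1.44 and 0.883 CPM with agonist and 2.33, 1.84 and 0.448 CPM with vehicle, with overlapping groups. The log2 difference of Mmp9 was -0.13 ± 0.62, and 0.01 without vehicle replicate 2 and -0.57 without vehicle replicate 3. Mmp11, which is typical of stromal fibroblasts around carcinomas, had 5.58, 3.98 and 5.52 CPM with agonist and 4.17, 4.90 and 1.64 CPM with vehicle. Vehicle replicate 3 was the lowest, and the difference of 0.49 ± 0.44 on the log2 scale was 0.15 without it and 0.78 without vehicle replicate 2. For Mmp11 limma gave 0.79 on log2(TPM + 1) and 1.03 on log2(TPM + 0.1), also without a call.

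Mmp12, the metalloelastase of macrophages, had 21.4, 21.2 and 11.2 CPM with agonist and 15.6, 15.5 and 8.21 CPM with vehicle. Agonist replicates 1 and 2 lay above each vehicle library and agonist replicate 3 below the upper vehicle values. Its log2 fold change was 0.45 ± 0.34, and 0.20 without vehicle replicate 3 and 0.70 without agonist replicate 3. Macrophage markers, 8 of 8 detected, were also lowest in vehicle replicate 3, but highest in vehicle replicate 2, where Mmp12 was not. Their part in Mmp12 was not tested. Mmp7 had 0.217, 0.415 and 0.788 CPM with agonist and 0.182, 0.399 and 0.0995 CPM with vehicle, highest in agonist replicate 3. The log2 fold change of Mmp7 was 1.06 ± 0.71, and 0.48 without agonist replicate 3 and 1.72 without vehicle replicate 2. Agonist replicate 3 also had the highest sum of 7 basal and myoepithelial markers, 528 CPM beside 61.9 to 219.5 CPM in the other libraries. Of these markers 7 of 7 had positive log2 fold changes, 3 at an unadjusted p under 0.05, beside 3.09% of all tested genes. The 3 were Myh11, Acta2 and Col17a1. In agonist replicate 3 they had 43.6, 162 and 11.5 CPM, beside at most 4.34, 51.7 and 4.93 CPM in any other library. By edgeR 0 of these markers passed the adjusted threshold, and their part in Mmp7 was not tested. The collagenase Mmp13 had 3.92 ± 0.572 against 3.10 ± 1.23 CPM. The log2 difference was 0.34 ± 0.39, and 0.08 without vehicle replicate 3 and 0.64 without vehicle replicate 2. Mmp28, or epilysin, had 0.19, 0.317 and 0.143 CPM with agonist and 0.593, 0.879 and 0.124 CPM with vehicle. Its log2 fold change of -1.28 ± 0.74 (-1.74 without vehicle replicate 3 and -0.73 without vehicle replicate 2) rests on few counts.

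Mmp19 and Mmp23 followed the vehicle pattern described above. The log2 difference of Mmp19 between agonist and vehicle was 0.15 ± 0.70. The agonist libraries of Mmp19, at 14.2, 13.4 and 12.3 CPM, were close to each other, whereas the vehicle libraries spanned 9.12-fold. Mmp23 had 5.79 ± 1.58 against 5.10 ± 4.66 CPM, which on the log2 scale was 0.18 ± 0.64. Without vehicle replicate 3 both turned, to -0.31 and -0.23, and without vehicle replicate 2 they were 1.25 and 1.23.

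In the ADAMTS family 9 of the 18 tested genes had positive and 9 negative log2 fold changes, with a median of 0.02. Adamts18, an ADAMTS protease whose substrates are poorly known, had 1.92, 4.34 and 4.23 CPM with agonist and 0.821, 2.32 and 0.274 CPM with vehicle. Agonist replicate 1 lay below vehicle replicate 2, so that the groups overlapped. Its log2 fold change of 1.62 ± 0.74 was the largest positive value of the 39 (unadjusted p = 0.0609, edgeR adjusted p = 0.99), and with libraries left out it ran from 1.17 to 2.66, the latter without vehicle replicate 2. Adamts18 reached an unadjusted p under 0.05 in the DESeq2 test, in both limma fits on TPM, without the low-count filter and with the replicate number as a block. It did not reach an adjusted p of 0.05 in any of these fits.

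The proteoglycan-cleaving ADAMTS genes did not share a direction, with 4 positive and 3 negative. Adamts1 had 12.3, 13.3 and 11.1 CPM with agonist and 8.12, 20.8 and 17.8 CPM with vehicle, at -0.35 ± 0.34 on the log2 scale. Adamts15 had 10.1, 14.9 and 14.4 CPM with agonist and 8.07, 22.7 and 22.4 CPM with vehicle, at -0.43 ± 0.39. In both genes vehicle replicate 1 was the lowest of the 6 libraries and the other two vehicle libraries the highest. Without vehicle replicate 1 they were at -0.66 and -0.78, and without vehicle replicate 2 at -0.08 and -0.21. Adamts4, an aggrecanase, had 2.87, 4.98 and 2.91 CPM with agonist and 2.10, 3.46 and 1.39 CPM with vehicle, at 0.63 ± 0.45 (1.03 without vehicle replicate 2 and 0.32 without agonist replicate 2). Adamts5, the other main aggrecanase, had 17.2 ± 4.34 against 13.6 ± 14.6 CPM, at 0.34 ± 0.73, and turned to -0.06 without vehicle replicate 3, while it was 1.72 without vehicle replicate 2. Adamts8 had 16.5 ± 8.30 against 17.8 ± 10.6 CPM, at -0.11 ± 0.57 (0.35 without vehicle replicate 3 and -0.61 without agonist replicate 2).

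Among the procollagen N-propeptidases, Adamts3 had 3.20, 3.22 and 3.96 CPM with agonist and 6.18, 3.43 and 6.02 CPM with vehicle. Vehicle replicate 2 lay among the agonist libraries and the other vehicle libraries above them. Its log2 fold change was -0.59 ± 0.35, with -0.82 to -0.45 when libraries were left out. Adamts2 had 33.9 ± 6.10 against 30.4 ± 29.1 CPM, at 0.16 ± 0.71, and -0.31 without vehicle replicate 3. Adamts7 and Adamts12, which cleave cartilage oligomeric matrix protein, were at -0.16 ± 0.27 and -0.17 ± 0.40, and turned to 0.03 without vehicle replicate 1 and to 0.34 without vehicle replicate 2, respectively. Adamts10 was at -0.28 ± 0.33, and ran from -0.59 without vehicle replicate 2 to -0.03 without vehicle replicate 1.

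The 4 Timp genes had positive log2 fold changes, with a median of 0.47, also under the other scalings, but 2 of 4 were negative without agonist replicate 3 and 2 of 4 without vehicle replicate 1. Timp1 had 50.5, 25.2 and 28.8 CPM with agonist and 16.6, 43.5 and 6.04 CPM with vehicle. Vehicle replicate 2 lay above agonist replicates 2 and 3. The log2 fold change of Timp1 was 0.66 ± 0.68, with 0.22 without vehicle replicate 3 and 1.61 without vehicle replicate 2. Timp2 had 87.0, 85.2 and 149 CPM with agonist and 50.7, 163 and 51.4 CPM with vehicle, at 0.28 ± 0.51. Without vehicle replicate 2 it was 1.06 (unadjusted p = 0.00627, edgeR adjusted p = 0.281), without vehicle replicate 3 it was 0.02 and without agonist replicate 3 it was -0.04. Timp3 had 37.7, 26.3 and 42.8 CPM with agonist and 23.5, 46.9 and 29.0 CPM with vehicle. It varied little, with a vehicle span of 1.998-fold and a log2 fold change of 0.10 ± 0.29 (95% interval -0.57 to 0.78). Timp4 had 0.813, 0.366 and 0.119 CPM with agonist and 0.16, 0.266 and 0.124 CPM with vehicle, highest in agonist replicate 1. Its log2 fold change was 1.22 ± 0.75, and 0.41 without agonist replicate 1.

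Genes around these proteases were described from lists of the pathway. Of 7 tested genes of plasminogen activation, the serine protease system that can activate pro-MMPs, 6 had positive log2 fold changes and 0 passed the adjusted threshold by edgeR (0 at an unadjusted p under 0.05), with a median of 0.26. Plau, the urokinase gene, was at 0.20 ± 0.44 and its receptor gene Plaur at 0.30 ± 0.44. Of 5 tested convertase and EMMPRIN genes 2 were positive and 0 passed (0 at an unadjusted p under 0.05). Furin, the convertase that activates membrane-type MMPs, was at -0.32 ± 0.26, and Bsg, which encodes the MMP inducer EMMPRIN, at -0.29 ± 0.19. Of 5 tested genes for other inhibitors of metalloproteases 3 were positive and 0 passed, and Reck, a membrane-anchored inhibitor of MMPs, had 16.3 ± 4.63 against 15.5 ± 2.26 CPM (0.07 ± 0.25). The 7 ADAMTS-like genes (4 positive, median 0.09), the 10 tested ADAM genes (5 positive, median near 0), the 4 tested procollagen C-proteinase genes (2 positive, median 0.07) and the 11 tested cathepsin and cystatin genes (8 positive, median 0.05) likewise had 0 passing by edgeR and 0 at an unadjusted p under 0.05.

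Genes of matrix substrates were read beside their proteases. Of 14 tested substrate genes 12 had positive log2 fold changes and 0 passed, with a median of 0.27. Col1a2, a chain of the main fibrillar collagen, had 859, 533 and 689 CPM with agonist and 452, 1071 and 107 CPM with vehicle. Vehicle replicate 2 was the highest and vehicle replicate 3 the lowest, as for Mmp2 and Mmp3. Several substrate genes, Col1a2 among them, are also fibroblast markers here, so that this is not separate from the fibroblast sum. Comp, a substrate of ADAMTS7, had 46.4 CPM in vehicle replicate 1 and between 1.29 and 4.2 CPM in the other libraries.

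Of 16 transcription factors and cytokines known to induce MMP genes 12 had negative log2 fold changes, with a median of -0.27. By edgeR 0 of them passed the adjusted threshold and 2 had an unadjusted p under 0.05, beside 3.09% of all tested genes. Jund, a Jun family subunit of AP-1, had 290.1, 349 and 281 CPM with agonist and 542, 533 and 384 CPM with vehicle. Each agonist library lay below each vehicle library, at a log2 fold change of -0.67 ± 0.19 (unadjusted p = 0.00806, edgeR adjusted p = 0.99), beside 4.22% of all tested genes that were lower without overlap. Fosb, another AP-1 subunit, had 24.8 CPM in vehicle replicate 2 and between 2.33 and 7.11 CPM in the other libraries. Fosl1 was lower without overlap at under 0.6 CPM. Il1b, an inducer of MMP expression, is named here after its values were seen. It was higher without overlap (3.12 to 4.36 against 0.895 to 2.78 CPM), as were 3.02% of all tested genes. For Il1b edgeR gave an unadjusted p of 0.107 and an adjusted p of 0.99. The cluster genes with an AP-1 match that were tested, Mmp3, Mmp7, Mmp12 and Mmp13, had log2 fold changes of 0.12, 1.06, 0.45 and 0.34, with no call among them.

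Some counts are uncertain because genes share sequence on opposite strands and the strand setting of the counting is not stated. Timp1, Timp3 and Timp4 lie within the synapsin genes Syn1, Syn3 and Syn2. The exons of Timp3 overlap those of Syn3 by 1733 bases and those of Timp4 overlap Syn2 by 90 bases, whereas Timp1 shares 0 exonic bases with Syn1, which had a mean of 0.37 TPM. Mmp11 overlaps Chchd10 (mean 71.1 TPM) by 155 exonic bases, Mmp19 overlaps Tmem198b (7.34 TPM) by 789 and Mmp28 overlaps 1700020L24Rik (7.33 TPM) by 466. For a low gene such as Mmp28 the counts could include reads of the neighbour.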

How the data were processed

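RNA of mammary tumours was sequenced in 6 libraries, 3 per group, assigned by their titles. Per the submitters' processing notes, the genome build was GRCm38 and the tools included STAR 2.7.9a and RSEM 1.3.1. The sources used here do not state the annotation release, the strand setting or any read filter. The deposited tables, per the file headers, hold RSEM expected counts and TPM that the authors derived from the same reads by length. Expected counts (10.1% to 10.5% of values not whole within 0.001) were rounded and tested with edgeR 4.0.16 in R 4.3.3, with TMM, filterByExpr (minimum count 10, total 15), robust dispersions, the quasi-likelihood test of group and no covariate. The SE is the log2 fold change over the root of its F statistic. P-values were adjusted by the Benjamini-Hochberg method over the 17396 genes tested and called under 0.05. CPM use TMM-adjusted totals of tested genes, except the marker sums, which use library totals. The fit was tested on simulated data. A planned search of the proteins was not run, since protein sequences were not used here.

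The members and lists were chosen with earlier results of these data known. Members of at least 1 TPM were named, the 8 with the smallest unadjusted p were given in every library, and other tested members, the 3 genes of smallest p per list and 6 set genes could be named. Some genes that this rule or the overlaps would name are not reported here. Alternatives were DESeq2 1.42.0 (size factors and Wald test), upper-quartile factors, other filters, a replicate block, left-out libraries and limma-trend (3.58.1) on log2(TPM + 1) or log2(TPM + 0.1), whose fold changes understate low genes. Floors cover counting error only, and the labels name no molecular identifiers. Positions are those of GENCODE on GRCm38, which matches the stated build.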

Additional observations from a re-analysis of the deposited data

How the results depend on the processing

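By edgeR 0 members passed the adjusted threshold under each alternative run, as by DESeq2 and limma. Over all genes the count of calls was 0, except for 5 with the DESeq2 Wald test. The count of members at an unadjusted p under 0.05, 1 as reported, was 0 with upper-quartile factors, 2 without the low-count filter and 2 with the DESeq2 Wald test, and ran from 0 to 13 with libraries left out. The same count over all genes, 538 as reported, was 847 without the low-count filter and ran from 315 (without agonist replicate 3) to 2442 (without vehicle replicate 2). The members' median log2 fold change ran from -0.17 to 0.64 with libraries left out.

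Of 388 values of 28 single genes under alternatives, 361 kept their sign and 27 did not, and 16 genes kept it throughout. Adamts8 turned to 0.03 with the replicate block, 0.03 with limma on log2(TPM + 1) and 0.06 on log2(TPM + 0.1), and Adamts12 to 0.01 on the last. With libraries left out the genes that turned ran as follows: Adamts8 from -0.61 to 0.35, Mmp23 from -0.23 to 1.23, Mmp3 from -0.40 to 1.81, Timp2 from -0.04 to 1.06, Timp3 from -0.09 to 0.44, Adamts2 from -0.31 to 1.24, Adamts5 from -0.06 to 1.72, Adamts7 from -0.33 to 0.03, Mmp19 from -0.31 to 1.25, Adamts12 from -0.46 to 0.34, Mmp14 from -0.36 to 0.24 and Mmp2 from -0.13 to 1.52. The cause was not tested. Low genes shrank on log2(TPM + 1), by its construction: Adamts18 to 0.49, Mmp7 to 0.33, Timp4 to 0.08, and Mmp24 and Mmp28 each to -0.13. The number of expressed members was 27 at 0.5 TPM and 18 at 2 TPM.

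The replicate numbers are shared between groups, and small correlations of so few libraries cannot settle whether they mark a pairing. Deviations of same-numbered libraries correlated at 0.172, 0.0377 and 0.0628, and those of other pairs of libraries between -0.109 and 0.055. Each vehicle library correlated best with the agonist library of its number. Agonist replicate 2, however, correlated better with vehicle replicate 3 (0.055) than with its own number. With the replicate number as a block 0 members were called, 1 had an unadjusted p under 0.05, and 488 genes in all did. Adamts5 was at 0.92 under the block.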
